A study of Mus musculus with 57 samples.

Results

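Messenger RNA of 10 genes of the matrix metalloproteinase system was followed through 57 mouse libraries of liver macrophages, blood monocytes and whole liver. The genes were 7 metalloproteinases (Mmp12, Mmp13, Mmp14, Mmp8, Mmp9, Mmp2 and Mmp19) and 3 tissue inhibitors (Timp1, Timp2 and Timp3), chosen by name among 24941 genes, with the transcript of highest total count standing for each gene. All 10 were measured. In the population set, with 2 libraries a group of C57BL/6J mice, sorted cells were Ly6C-low recruited macrophages (Ly6C-low RM, CD11b-high), Kupffer-niche recruited macrophages (KN-RM, F4/80-high and Tim4-negative), Kupffer cells of mice on NASH diet (KC-N, F4/80-high and Tim4-positive), Kupffer cells of mice on control diet (KC-H), Ly6C-high recruited macrophages (Ly6C-high RM) and blood Ly6C-high monocytes. All but KC-H came from mice on a NASH diet, which causes fatty liver with inflammation. The time course held Kupffer cells of C57BL/6J mice after 0 weeks (control diet, n = 3) and 1 (n = 2), 4 (n = 2), 10 (n = 3), 20 (n = 3) and 30 weeks (n = 4) of NASH diet. The LXR set held KN-RM after 20 weeks of NASH diet from mice with floxed genes of both liver X receptors (sterol-sensing nuclear receptors), with 3 libraries labelled as carrying Clec4f-cre (Cre-positive) and 3 as lacking it (Cre-negative). Both groups carried the floxed alleles, and only the first, by its label, the recombinase driven by Clec4f, a gene of Kupffer cells. Whole livers came from mice given CDAHFD, another NASH diet, for 4 weeks, labelled Clec4f-cre DTR positive (n = 12) or negative (n = 10), where DTR is the diphtheria toxin receptor.

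Matrix metalloproteinases are zinc enzymes that cut collagens, elastin and other matrix proteins, and most are made as inactive forms that lose a propeptide to become active. Tissue inhibitors bind the active enzymes, so that the amount of active enzyme depends on both. In the liver, macrophages are a known source of metalloproteinases while scar matrix is laid down and while it is removed. Messenger RNA reports neither secretion nor activation.

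Mmp13, Mmp12 and Mmp8 lie in this order in a cluster of 10 Mmp genes on chromosome 9 (mm10, 7272514 to 7699585, 427 kb). Mmp12 runs over 7347374 to 7360461 and Mmp13 over 7272514 to 7283333, both on the plus strand. Since both neighbours were called higher in KC-N than in KC-H and from week 10 on, the 250 bases before their starts are shown, from the RefSeq promoter table (GRCm38.p6, plus strand, 5′ to 3′), with capitals for the AP-1 motif TGACTCA or its reverse complement TGAGTCA.
Mmp12, chr9:7347124-7347373: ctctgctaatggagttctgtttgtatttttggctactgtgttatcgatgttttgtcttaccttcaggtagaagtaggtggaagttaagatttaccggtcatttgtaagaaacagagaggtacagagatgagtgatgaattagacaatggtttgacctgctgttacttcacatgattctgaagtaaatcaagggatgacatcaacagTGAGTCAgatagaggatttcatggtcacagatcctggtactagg
Mmp13, chr9:7272264-7272513: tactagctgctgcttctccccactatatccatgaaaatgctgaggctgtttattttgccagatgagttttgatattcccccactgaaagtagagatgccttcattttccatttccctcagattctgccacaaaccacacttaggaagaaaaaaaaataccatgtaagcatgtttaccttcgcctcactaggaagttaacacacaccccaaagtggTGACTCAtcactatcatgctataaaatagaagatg
The motif began 44 bases before the Mmp12 start and 35 bases before the Mmp13 start. Of the 7 members with an entry in that table (Mmp12, Mmp13, Mmp14, Mmp8, Timp1, Timp2 and Timp3), these 2 held the motif between 250 bases before and 50 after the start, on either strand, and so did 5.2% of 32851 promoters. A second Mmp12 entry, with a start at 7344397, held no such motif. The letters are a description of the sequence, and whether a factor bound there was not measured here.

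Whole-liver libraries held 5.39 to 9.94 M counts and the LXR libraries 2.32 to 5.09 M, while those of Kupffer cells by week held 10.48 to 26.97 M and the sorted populations 12.37 to 22.71 M (M, mega). Levels are CPM (library size adjusted by TMM) unless TPM (which also divides by transcript length) is named, and "called" means an adjusted p under 0.05 in edgeR's quasi-likelihood test over all genes of that set. Nothing in the labels ties each replicate to its own animal, and every p-value therefore reflects only how far these samples spread. In bulk samples, fewer cells of a type and less RNA per cell cannot be told apart. The gates were checked on marker genes. Timd4, which encodes Tim4, was at 165 and 260 CPM in KC-N, 752 and 994 CPM in KC-H and 5.52 and 12.5 CPM in KN-RM. Clec4f was at 2690 to 8300 CPM in the F4/80-high populations and KC-H. Ly6c2 was at 294 and 384 CPM in Ly6C-high RM and 753 and 869 CPM in blood monocytes. Exons of 3 members overlap a gene on the opposite strand (Mmp12 with Mmp1b by 157 bases, Mmp19 with Tmem198b by 789, Timp3 with Syn3 by 1733), and the strand option of the counting is not given in the sources used here.

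Per length, the sorted macrophages of NASH diet mice in the population set held more transcript of the 7 metalloproteinases than of the inhibitors. In Kupffer cells on control diet the metalloproteinase sum was similar to the inhibitor sum or smaller. Other metalloproteinase genes are not in these sums, among them Mmp27, at 47.7 and 61.6 CPM in KC-H and 86.9 and 96.8 CPM in KC-N. The 7 metalloproteinases summed to 446 to 470 TPM in KC-N and 51.7 to 97.6 TPM in KC-H, against inhibitor sums of 80.2 to 89.8 TPM in KC-N and 90.1 to 106 TPM in KC-H. Over the weeks of diet the ratio of the sums was 0.463 to 0.68 at week 0, 0.689 to 1.02 at week 1, 0.431 to 1.26 at week 4, 0.499 to 3.7 at week 10, 4.9 to 11.9 at week 20 and 8.62 to 13.6 at week 30. The metalloproteinase sum carried this, with inhibitor sums of 72.2 to 132 TPM in all 17 libraries. Mmp12, the macrophage elastase, made up 67% of the mean metalloproteinase sum at week 30 and 57.8% in KC-N, whereas Mmp14, a membrane-anchored enzyme, made up 68.9% in Ly6C-low RM, 68.6% in Ly6C-high RM and 55.2% in KC-H. In blood monocytes the place was taken by Mmp8, the collagenase best known from neutrophils, with 75.7%. Timp2 made up 69.1% to 99.3% of the mean inhibitor sum in the 14 sorted groups, and 55.5% in DTR-positive and 56.8% in DTR-negative whole livers.

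**Figure D1:**
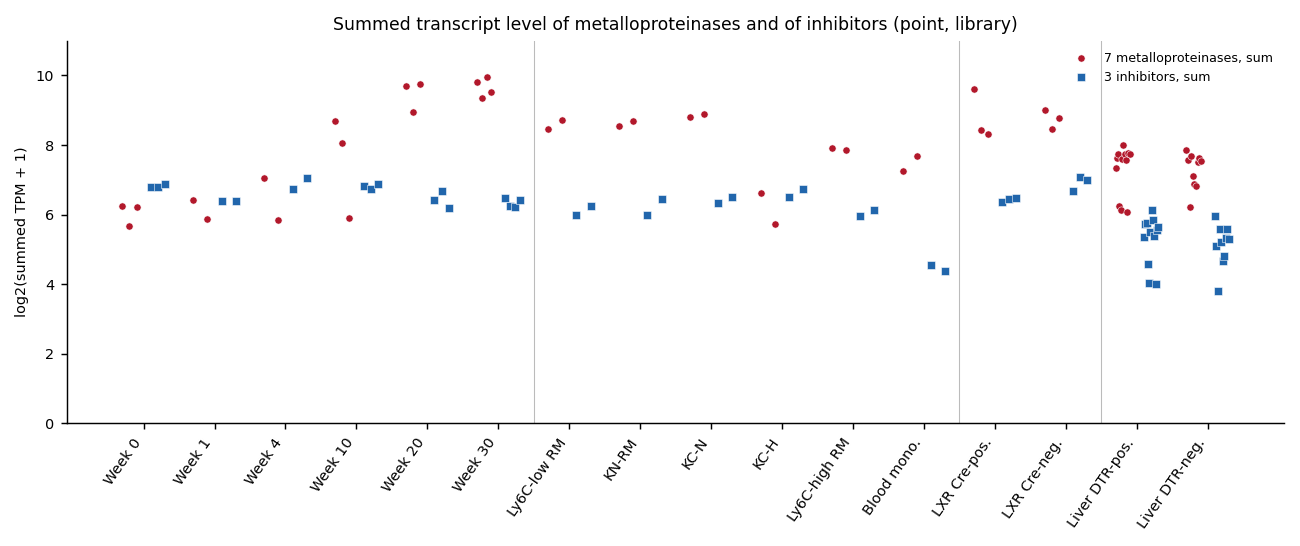
Summed TPM of the 7 metalloproteinases (circles) and of the 3 inhibitors (squares) in each of 57 libraries, as log2(TPM + 1), for the time course, the population set, the LXR set and whole liver. The inhibitor sums of Kupffer cells stay between 72.2 and 132 TPM over the weeks, and the metalloproteinase sums reach 1000 TPM at week 30.

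The first comparison asked how Kupffer cells of NASH diet mice differ from those of control diet mice. Of the 10 members, 5 were called and all 5 were higher in KC-N, against 20.7% of 14407 genes called in either direction (11.2% higher and 9.56% lower). Among the enzymes that cut elastin and fibrillar collagen, Mmp12 was at 812 and 909 CPM in KC-N, against 7.48 and 9.61 CPM in KC-H (adjusted p = 8.02e-07, edgeR). Mmp13, the main collagenase of rodents, was at 119 and 101 CPM in KC-N, against 3.36 and 2.22 CPM in KC-H, a 38.7-fold rise (log2 5.27 ± 0.21 SE, n = 2 each, adjusted p = 5.17e-07). Both genes left a wide gap between the groups. Mmp8 was low in both, at 3.78 and 5.79 CPM in KC-N, against 1.12 and 2.14 CPM in KC-H (2.97-fold, adjusted p = 0.029), and its call was lost without KC-H replicate 1 (adjusted p = 0.167) or KC-N replicate 2 (adjusted p = 0.198), and by limma on log2(TPM + 1) (0.0764).

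Mmp2, the gelatinase that Mmp14 activates at the cell surface, rose 9.54-fold, with 30.4 and 53.7 CPM in KC-N, against 3.68 and 5.1 CPM in KC-H (log2 3.25 ± 0.33, adjusted p = 9.18e-05). Mmp14 itself was at 299 and 402 CPM in KC-N, against 195 and 44.9 CPM in KC-H (2.89-fold, adjusted p = 0.0389). The Mmp14 groups did not overlap, but the KC-H libraries were far apart, and the call was lost without KC-N replicate 1 (adjusted p = 0.0686) or KC-N replicate 2 (adjusted p = 0.197), or with only the 2 groups fitted (0.113). The log2 change was 2.96 without KC-H replicate 1 and 0.83 without KC-H replicate 2, against 1.53 with all libraries. The other gelatinase, Mmp9, was at 19.6 and 8.29 CPM in KC-N and 6.23 and 7.69 CPM in KC-H and was not called (adjusted p = 0.187). Mmp19, a secreted enzyme that cuts basement membrane proteins, was at 70.5 and 53.2 CPM in KC-N and 57.6 and 63.6 CPM in KC-H, with a log2 difference of 0.02 ± 0.16.

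None of the 3 inhibitors was called. Timp2, which inhibits metalloproteinases and also takes part in the activation of Mmp2, was at 240 and 281 CPM in KC-N and 238 and 279 CPM in KC-H, with a log2 difference of 0 ± 0.15. Timp1, the inhibitor best known for its rise in liver injury, was near the detection limit, at 0.724 and 1.29 CPM in KC-N and 0.561 and 0.665 CPM in KC-H. Timp3, which stays bound to the matrix, was at 8.52 and 15.4 CPM in KC-N and 14.9 and 8.65 CPM in KC-H. Summed stellate cell and fibroblast markers (12 genes, none at 0 in all libraries of either group) were 178 and 376 CPM in KC-N and 166 and 119 CPM in KC-H. Cholangiocyte markers (7 genes, 3 called higher) summed to 72.8 to 226 CPM in KC-N and 2.62 to 3.1 CPM in KC-H. Spp1, which is also listed below among matrix genes, is in that sum, so the sum may not reflect cholangiocytes alone. T and NK cell markers summed to 27.3 to 45.6 CPM in KC-N and 9.72 to 11.5 CPM in KC-H, with 7 of 9 called higher. Kupffer cell markers summed to 23900 to 26800 CPM in KC-N and 32100 to 38700 CPM in KC-H. Of these 10, 5 were called lower and 0 higher. Sinusoidal endothelial markers summed to 800 to 844 CPM in KC-N and 1090 to 1140 CPM in KC-H. Of these 11, 7 were called lower and 0 higher. The part of these in the members' values was not tested.

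**Figure D2:**
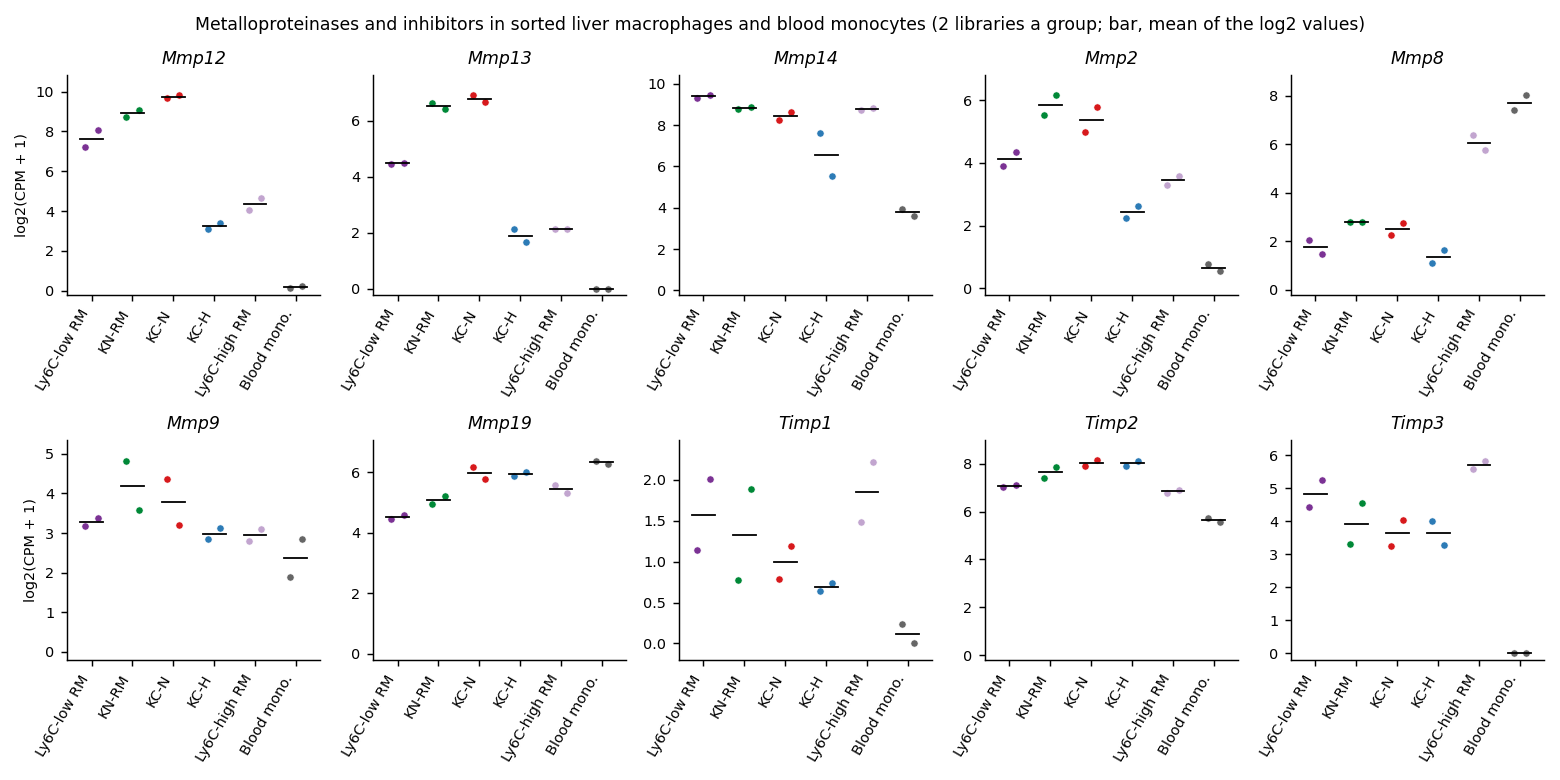
Level of each of the 10 members, as log2(CPM + 1), in the 6 groups of the population set, with a point for each library and a bar for the mean of the log2 values. Mmp12 and Mmp13 are highest in KC-N, Mmp8 in blood monocytes (170 and 260 CPM), and Timp3 in Ly6C-high RM (47.2 and 55.8 CPM).

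The time course asked when these genes change in Kupffer cells under the diet. Mmp12 had means of 8.84 CPM at week 0, 43 at week 1, 120 at week 4, 343 at week 10, 1250 at week 20 and 1680 at week 30. Against week 0 it was called at week 4 (13.6-fold, log2 3.76 ± 0.78, adjusted p = 0.0064), week 10 (38.4-fold), week 20 (141-fold) and week 30 (188-fold, log2 7.55 ± 0.86, adjusted p = 1.06e-05), and not at week 1 (4.86-fold, adjusted p = 0.0514). At week 1 it was called by DESeq2 (adjusted p = 0.0373), with no filter on low counts (0.0227) and with only the 2 groups fitted (0.000834). Replicates at the middle times were far apart, with 206 and 34.9 CPM at week 4 and 606, 385 and 39.5 CPM at week 10. The week 4 call was lost without its replicate 1 (log2 1.97, adjusted p = 0.206), and the log2 change was 4.53 without its replicate 2. At week 10 it was 4.57 without replicate 1, against 5.26 with all libraries.

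Mmp13 had 15.2, 7.87 and 10.8 CPM at week 0, 38 and 20.4 CPM at week 1, 23.9 and 5.55 CPM at week 4, and 184, 84.7 and 12.4 CPM at week 10. It then had 285, 165 and 344 CPM at week 20 and 246, 110, 278 and 169 CPM at week 30. It was called from week 10 on (8.12-fold, then 23.2-fold at week 20 and 17.4-fold at week 30), and its log2 change at week 10 was 2.07 without week 10 replicate 1, against 3.02 with all libraries. The libraries low in Mmp12 at weeks 4 and 10 were also the ones low in Mmp13, namely replicate 2 of week 4 and replicate 3 of week 10. In those libraries summed Kupffer cell markers were 30100 and 33200 CPM, against 31400 CPM in the other week 4 library and 24600 and 26700 CPM in the other week 10 libraries, and the part of this in the values was not tested.

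Mmp14 and Mmp2 kept low levels through week 10 and were called higher from week 20. Mmp14 had 38.3 to 66.1 CPM at week 0, 15.4 and 19.3 CPM at week 1, 31.8 and 49.4 CPM at week 4, 34.6 to 72.1 CPM at week 10, 227 to 390 CPM at week 20 and 355 to 408 CPM at week 30. It was called lower at week 1 (2.85-fold, adjusted p = 0.00437), a call lost without week 1 replicate 2 (adjusted p = 0.0538), and called higher at week 20 (6.66-fold, adjusted p = 4.68e-06) and week 30 (7.54-fold, adjusted p = 1.7e-06). Mmp2 had 2.63 to 4.78 CPM at week 0, 5.45 to 10 CPM at week 10, 19.4 to 31.1 CPM at week 20 and 21.6 to 42.6 CPM at week 30, and it was called at weeks 20 (6.51-fold) and 30 (8.09-fold, adjusted p = 1.53e-05). Summed stellate cell and fibroblast markers were 44.9 to 71.8 CPM at week 0, 246 to 430 CPM at week 10, 108 to 343 CPM at week 20 and 143 to 412 CPM at week 30. Their part in the Mmp2 and Mmp14 values was not tested.

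Mmp19 was 30.7 to 37.4 CPM at week 0, 39.1 and 83.3 CPM at week 1, 46.3 and 55.2 CPM at week 4, 40.1 to 64.7 CPM at week 10, 96.7 to 125 CPM at week 20 and 90.8 to 130 CPM at week 30. It was called higher at weeks 20 (3.32-fold, adjusted p = 6.26e-05) and 30 (3.28-fold, adjusted p = 4.08e-05). Its calls at week 1 (adjusted p = 0.0288) and week 10 (adjusted p = 0.0394) were lost without single libraries, with adjusted p = 0.685 without week 1 replicate 1, 0.0778 and 0.0831 without week 0 replicates 2 and 3 at week 1, 0.12 and 0.115 without the same libraries at week 10, and 0.131 and 0.109 without week 10 replicates 1 and 2. They were also lost by limma on log2(TPM + 1) (0.188 at week 1 and 0.0822 at week 10) and with only the 2 groups fitted (0.0965 and 0.0514). Mmp8 stayed at 1.11 to 3.34 CPM at week 0 and reached 5.47 to 8.28 CPM at week 20 and 5.2 to 10.1 CPM at week 30. It was called at both (2.98-fold, adjusted p = 0.0482, and 3.59-fold, adjusted p = 0.0214). The week 20 call was lost without any 1 of 5 libraries (adjusted p = 0.0606 to 0.165; week 0 replicates 2 and 3 and each week 20 library) or by limma on log2(TPM + 0.1) (0.0795), and that of week 30 without week 0 replicate 2 (0.0889) or 3 (0.0586). Mmp9 was the only enzyme called lower at week 10, with 8.69, 9.11 and 6.98 CPM, against 23.2, 23.3 and 70.4 CPM at week 0 (4.77-fold lower, adjusted p = 0.0283). That call was lost without week 0 replicate 3 (log2 -1.51, adjusted p = 0.146) or any week 10 library (adjusted p = 0.068 to 0.0751), and at week 30 the 4 libraries ranged over 6.69 to 40.2 CPM.

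In edgeR's test no inhibitor was called higher at any time. Timp2 was at 202 to 279 CPM at week 0, 222 and 225 CPM at week 1, 270 and 338 CPM at week 4, 221 to 280 CPM at week 10, 201 to 264 CPM at week 20 and 212 to 250 CPM at week 30, and it was not called at any of them. Its log2 difference at week 30 was -0.13 ± 0.13, and limma on log2(TPM + 1) called it lower there (-0.42, adjusted p = 0.0137). Timp1 averaged 1.17 CPM at week 30 and 0.391 CPM at week 0 and was not called (2.88-fold, adjusted p = 0.0566), but it was called higher by DESeq2 (adjusted p = 0.0407), by limma on log2(TPM + 1) (0.0477) and with only the 2 groups fitted (0.0193). Timp3 had 49.3, 14.1 and 19.3 CPM at week 0, and the first library stood above the others. It was called lower at week 30 (9.74, 10.3, 8.36 and 19.7 CPM, 2.34-fold, adjusted p = 0.0387), but without week 0 replicate 1 the log2 difference was -0.49 (adjusted p = 0.397), and the call was also lost without week 30 replicate 1, 2 or 3 (adjusted p = 0.0888 to 0.0999). Summed sinusoidal endothelial markers were 1160 to 2560 CPM at week 0 and 681 to 974 CPM at week 30. Of these 11 markers, 9 were called lower at week 30, against 15% of all genes. Their part in the Timp3 values was not tested.

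In counts of members, 1 rose and 1 fell at week 1 (16% of 14552 genes called, 9.42% higher and 6.56% lower). At week 4, 1 rose (8.54% called, 5.55% higher and 2.99% lower), and at week 10, 3 rose and 1 fell (19.1% called, 11.5% higher and 7.63% lower). At week 20, 6 rose (34.7% called, 18.2% higher and 16.6% lower), and at week 30, 6 rose and 1 fell (30.5% called, 15.5% higher and 15% lower). In a fit of a straight slope on log2 weeks over the 14 libraries on the diet, 5 members rose and 0 fell (22.1% of 14470 genes called, 10.7% higher and 11.5% lower), namely Mmp12, Mmp13, Mmp14, Mmp2 and Mmp19. The slope was steepest for Mmp12, at 1.13 ± 0.16 log2 units per doubling of weeks, followed by Mmp14 at 0.97 ± 0.1, Mmp13 and Mmp2 at 0.71 each (SE 0.18 and 0.11) and Mmp19 at 0.22 ± 0.06. The Mmp19 slope was not called without week 1 replicate 2 (adjusted p = 0.108). Timd4 moved with the late times, at 765 to 913 CPM at week 0 and 624 to 687 CPM at week 10, then 112 to 426 CPM at week 20 and 79.9 to 288 CPM at week 30. Summed Kupffer cell markers were 24200 to 31200 CPM at week 0, 17600 to 23000 CPM at week 20 and 15700 to 22000 CPM at week 30. The part of this in the late rises was not tested.

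**Figure D3:**
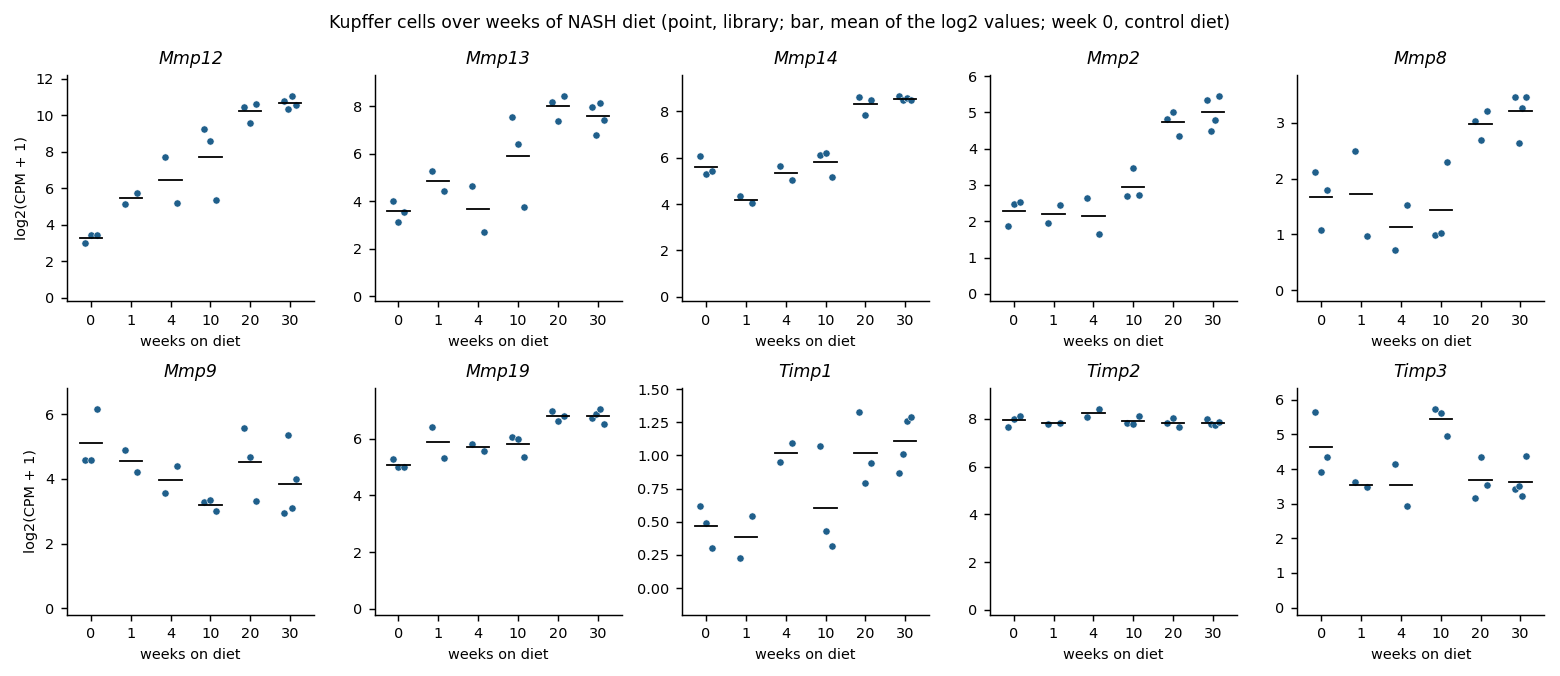
Level of each member in Kupffer cells, as log2(CPM + 1), at 0, 1, 4, 10, 20 and 30 weeks of diet, with a point for each of the 17 libraries and a bar for the mean of the log2 values. Mmp12 and Mmp13 spread widely at weeks 4 and 10, Mmp14 and Mmp2 step up between weeks 10 and 20, and Timp2 is level at 201 to 338 CPM.

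KN-RM and KC-N share the niche and were compared to ask how recruited cells differ from resident ones on the same diet. Of the members, 1 was called, with 0.534% of 14407 genes called (0.333% higher and 0.201% lower). Mmp19 was at 29.5 and 36.3 CPM in KN-RM, against 70.5 and 53.2 CPM in KC-N (1.89-fold lower, log2 -0.92 ± 0.17, adjusted p = 0.0403). The call was lost without KN-RM replicate 1 (adjusted p = 0.317) or 2 (0.14), or KC-N replicate 1 (0.399), with only the 2 groups fitted (0.0921) and by limma (0.133 and 0.139). Mmp12 was at 428 and 545 CPM in KN-RM, against 812 and 909 CPM in KC-N, without overlap but not called (log2 -0.83 ± 0.25, adjusted p = 0.261). It was called with no filter on low counts (adjusted p = 0.0208) and with the replicate number as a block (log2 -0.84, adjusted p = 0.0267). For Mmp13 (97.6 and 83.6 CPM in KN-RM, 119 and 101 CPM in KC-N) and Mmp14 (432 and 466 CPM in KN-RM, 299 and 402 CPM in KC-N) the log2 differences were -0.28 ± 0.16 and 0.35 ± 0.45.

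Ly6C-low RM lie outside the Kupffer gate, and 6 of 10 members were lower there than in KN-RM and 0 higher (33.3% of genes called, 15.3% higher and 18.1% lower). Mmp13 was at 21.1 and 21.7 CPM in Ly6C-low RM, against 97.6 and 83.6 CPM in KN-RM (4.38-fold, log2 -2.13 ± 0.17, adjusted p = 1.33e-05). Mmp2 was at 13.8 and 19.2 CPM in Ly6C-low RM, against 45.2 and 70.1 CPM in KN-RM (3.61-fold, adjusted p = 0.000738), and Mmp12 at 148 and 264 CPM in Ly6C-low RM, against 428 and 545 CPM in KN-RM (2.44-fold, adjusted p = 0.00302). Smaller falls were called for Timp2 (1.54-fold), Mmp19 (1.56-fold) and Mmp8 (2.35-fold). Each of these 3 was lost without some libraries, Timp2 without KN-RM replicate 2 (adjusted p = 0.0892) or Ly6C-low RM replicate 1 (0.0516), Mmp19 without the same libraries (0.105 and 0.0825), and Mmp8 without either KN-RM library (0.102 and 0.0699) or Ly6C-low RM replicate 2 (0.139), and limma on log2(TPM + 1) called none of them (adjusted p = 0.157 for Timp2, 0.237 for Mmp19 and 0.0914 for Mmp8). Mmp14 was higher by value, at 645 and 700 CPM in Ly6C-low RM and 432 and 466 CPM in KN-RM, and was not called (log2 0.54 ± 0.45, adjusted p = 0.392). Fitted on those 4 libraries alone it was called (log2 0.55, adjusted p = 0.00814). Dendritic cell markers summed to 558 to 639 CPM in Ly6C-low RM and 106 to 108 CPM in KN-RM (7 of 10 called higher, 2 lower), and sinusoidal endothelial markers to 823 to 840 CPM in Ly6C-low RM and 580 to 591 CPM in KN-RM (10 of 11 higher, 1 lower). Of 11 neutrophil markers tested, 5 were called lower. The part of these in the members' values was not tested.

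Between the recruited subsets, 4 members were called (25.7% of genes, 11.6% higher and 14% lower), Mmp12 and Mmp13 higher in Ly6C-low RM and Mmp8 and Mmp19 lower. Mmp13 was at 21.1 and 21.7 CPM in Ly6C-low RM, against 3.37 and 3.41 CPM in Ly6C-high RM (6.38-fold, log2 2.67 ± 0.2, adjusted p = 1.88e-05). Mmp12 moved the same way, at 148 and 264 CPM in Ly6C-low RM and 15.6 and 24.6 CPM in Ly6C-high RM (adjusted p = 2.2e-05). Mmp8 was at 3.19 and 1.78 CPM in Ly6C-low RM, against 83 and 52.7 CPM in Ly6C-high RM (25.8-fold lower, log2 -4.69 ± 0.36, adjusted p = 1.38e-05). Neutrophil markers summed to 165 to 197 CPM in Ly6C-low RM and 393 to 422 CPM in Ly6C-high RM (9 of 11 called lower), and hepatocyte markers to 780 to 1030 CPM in Ly6C-low RM and 2480 to 6140 CPM in Ly6C-high RM (13 of 14 lower). Ly6C-high monocyte markers summed to 1620 to 1960 CPM in Ly6C-low RM and 6440 to 6570 CPM in Ly6C-high RM (7 of 8 lower). The part of these 3 lists in the Mmp8 values was not tested. The collagenase genes Mmp13 and Mmp8 thus stood on opposite sides of the same comparison. Mmp19 was at 20.8 and 22.8 CPM in Ly6C-low RM, against 46.1 and 38.2 CPM in Ly6C-high RM (1.91-fold lower, adjusted p = 0.00273). Mmp14 was abundant in both subsets, at 645 and 700 CPM in Ly6C-low RM and 419 and 447 CPM in Ly6C-high RM (log2 0.66 ± 0.45, adjusted p = 0.316), and was again called when only these 4 libraries were fitted (log2 0.67, adjusted p = 0.00829).

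In blood monocytes the members above 20 CPM were Mmp8, Mmp19 and Timp2. Against them, 7 members were higher and 2 lower in Ly6C-high RM (48.6% of genes called, 27.3% higher and 21.3% lower), and 8 were higher and 2 lower in KN-RM (60.4%, 34% higher and 26.5% lower). Mmp14 was at 419 and 447 CPM in Ly6C-high RM, against 14.5 and 11.3 CPM in blood monocytes (29.9-fold, log2 4.9 ± 0.54, adjusted p = 3.7e-05). Mmp8 was at 83 and 52.7 CPM in Ly6C-high RM, against 170 and 260 CPM in blood monocytes (3.51-fold lower, adjusted p = 0.000454), and at 5.9 and 5.86 CPM in KN-RM (38.6-fold lower, adjusted p = 2.8e-07). Mmp19 was also lower, 2.08-fold in Ly6C-high RM and 2.55-fold in KN-RM, with 82 and 75.9 CPM in blood monocytes. Among recruited macrophages and blood monocytes, Mmp8 was thus highest in blood monocytes, then Ly6C-high RM, KN-RM and Ly6C-low RM, with no overlap between neighbours in that order. Summed neutrophil markers were 393 to 422 CPM in Ly6C-high RM, 144 CPM in both KN-RM libraries and 504 to 616 CPM in blood monocytes, and 0 of these 12 markers were at 0 there. Summed Ly6C-high monocyte markers were 6440 to 6570 CPM in Ly6C-high RM, 470 to 627 CPM in KN-RM and 12000 to 15700 CPM in blood monocytes. The part of both lists in the Mmp8 values was not tested.

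Mmp13 and Timp3 had 0 counts in both blood libraries, so that folds are lower bounds from a floor of 3 counts over the group. Mmp13 was at least 40.1-fold higher in Ly6C-high RM and at least 1070-fold higher in KN-RM, and Timp3 was at least 609-fold higher in Ly6C-high RM and at least 184-fold higher in KN-RM. In Ly6C-high RM the Mmp13 bound was 14.7 without blood replicate 1 and 25.5 without blood replicate 2, and that of Timp3 was 222 and 387. In KN-RM the same bounds were 391 and 681 for Mmp13 and 67.1 and 117 for Timp3. Mmp12 had 2 counts in each blood library and was called higher in Ly6C-high RM (15.6 and 24.6 CPM, adjusted p = 1.99e-06). Timp2 was at 110 and 118 CPM in Ly6C-high RM and 171 and 231 CPM in KN-RM, against 51.5 and 46.6 CPM in blood monocytes (2.09-fold and 3.86-fold). Mmp9 was called in KN-RM (27.3 and 10.9 CPM, against 2.71 and 6.25 CPM in blood monocytes, 4.18-fold, adjusted p = 0.00518) but not without KN-RM replicate 1 (0.0632) or blood replicate 1 (0.0582). Timp1 was called in KN-RM (adjusted p = 0.00679), but not without KN-RM replicate 2 (0.0717), and its counts in blood monocytes came from a single library.

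Sorted liver cells and blood also differ in markers of other cell types. Summed stellate cell and fibroblast markers were 749 and 907 CPM in Ly6C-high RM, with 9 of 12 markers at 0 and 2.88 and 3.16 CPM in blood monocytes. Sinusoidal endothelial markers summed to 1280 to 1350 CPM in Ly6C-high RM and 24.1 to 26.5 CPM in blood monocytes. Hepatocyte markers summed to 2480 to 6140 CPM in Ly6C-high RM and 209 to 406 CPM in blood monocytes. Timp3 was highest in Ly6C-high RM, and the 14 sorted group means of Timp3 were most like those of Nid1, a basement membrane gene (Pearson r = 0.978 over groups of TPM on a log scale), and Gata4, a transcription factor gene (0.97). The part of these other cell types in the Timp3, Mmp2 and Mmp14 values was not tested.

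By the same measure over 11009 genes, Mmp12 was most like Mras (r = 0.96), Atp6v0d2 (0.932) and Mmp13 (0.932), and Mmp8 was most like Cd177, a neutrophil surface gene (0.966). Mmp2 was most like Smo, the Hedgehog signal transducer gene (0.973), Timp2 like Rgl1 (0.974), and Mmp13 like Slc7a2 (0.94). Mmp9 (BC004004, 0.89) and Mmp19 (A530064D06Rik, 0.761) had weaker best matches. These values describe 14 group means that share libraries, depth and processing.

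Among the 17 other metalloproteinase genes, 9 passed the filter on low counts in the population set. Mmp25, a membrane-anchored enzyme first known from leukocytes, was called higher in KC-N than in KC-H (log2 2.35 ± 0.61, adjusted p = 0.0219), 1 of 9 up and 0 down, but at only 0.724 and 1.07 CPM in KC-N. It reached 34.4 and 46.9 CPM in Ly6C-low RM, against 2.46 and 2.49 CPM in KN-RM (15.8-fold, adjusted p = 6.96e-06) and 2.51 and 2.86 CPM in Ly6C-high RM. Mmp27, a gene of the chromosome 9 cluster, had the opposite distribution, at 1.78 and 2.69 CPM in Ly6C-low RM, against 49.6 and 52.4 CPM in KN-RM (22.8-fold lower, adjusted p = 2.79e-06). Unlike Mmp12 and Mmp13 of the same cluster it was abundant in Kupffer cells at both ends of the time course, at 96.5 to 126 CPM at week 30 and 73.6 to 76 CPM at week 0 (log2 0.5 ± 0.15, adjusted p = 0.0214).

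In the list of 24 genes of activation and pericellular proteolysis, 8 were called higher and 0 lower in KC-N than in KC-H, with a median log2 difference of 1.19 (0 over all genes), against 11.2% and 9.56% of all genes. Adam8, a membrane protease of leukocytes, was at 149 and 180 CPM in KC-N, against 2.68 and 4.14 CPM in KC-H (48.3-fold). Plau, the urokinase gene, rose 4.76-fold, and Plat, the other plasminogen activator gene, was called higher (adjusted p = 0.0308, edgeR) at levels near the detection limit, with 0.563 and 1.86 CPM in KC-N, against 0.0739 and 0.125 CPM in KC-H, where both libraries together held 3 counts. Furin, named here for its role of removing the propeptide of Mmp14, was not called (log2 0.03 ± 0.12). At week 30 against week 0, 11 of these 24 were called higher and 1 lower (15.5% and 15% of all genes). Of 20 genes of matrix substrates and crosslinkers, 9 were called higher and 0 lower in KC-N, and 11 higher and 0 lower at week 30, against the same shares of all genes. Among them was Col1a1, which encodes a chain of collagen I, with 27 and 59.5 CPM in KC-N, against 1.11 and 3.3 CPM in KC-H (adjusted p = 0.0144, edgeR). Of these 20 genes, 3 (Col1a1, Col1a2 and Col3a1) also stand in the list of stellate cell and fibroblast markers. Spp1 also stands in that of cholangiocyte markers and Vcan in that of Ly6C-high monocyte markers.

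The LXR set asked what loss of both liver X receptors does to KN-RM. The targeted genes did not check the labels: Nr1h3 (LXR alpha) was at 189, 450 and 299 CPM in libraries labelled Cre-positive and 242, 279 and 303 CPM in those labelled Cre-negative (log2 0.17 ± 0.28, adjusted p = 0.949), and Nr1h2 (LXR beta) was at 61.8, 82.2 and 64.6 CPM in libraries labelled Cre-positive and 50.2, 33 and 36.1 CPM in libraries labelled Cre-negative (adjusted p = 0.261). Neither was lower, and counts over all exons can include exons outside a deleted part. Of 9 members tested, 0 were called in edgeR's test, with 0.209% of 11480 genes called (0.174% higher and 0.0348% lower), and 3 members, like 947 of the 11480 genes, had an unadjusted p under 0.05.

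Mmp13 came nearest, at 52.7, 20.7 and 27 CPM in libraries labelled Cre-positive, against 104, 103 and 152 CPM in those labelled Cre-negative. The groups did not overlap, and the log2 difference was -1.89 ± 0.33 (n = 3 each, adjusted p = 0.0571). It was called by DESeq2 (adjusted p = 2.58e-05), with no filter on low counts (2.34e-06) and without Cre-positive replicate 1 (log2 -2.34, adjusted p = 0.0105). Its neighbour Mmp12 was at 293, 174 and 81.9 CPM in libraries labelled Cre-positive and 278, 116 and 200 CPM in those labelled Cre-negative (log2 -0.15 ± 0.42). Here the values of these 2 genes did not go together.

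Timp2 also kept its groups apart, at 118, 149 and 149 CPM in libraries labelled Cre-positive and 170, 245 and 220 CPM in those labelled Cre-negative (log2 -0.63 ± 0.2, adjusted p = 0.319). So did Mmp8, in the other direction, at 2.65 to 3.32 CPM in libraries labelled Cre-positive and 0.532 to 2.08 CPM in those labelled Cre-negative. It was not called (adjusted p = 0.755, edgeR). How many of all genes kept these groups apart was not counted, so the lack of overlap is only a description. Mmp14 was at 1040, 439 and 425 CPM in libraries labelled Cre-positive and 529, 294 and 390 CPM in those labelled Cre-negative (adjusted p = 0.755). For Mmp9 a single library labelled Cre-negative held 81.8 CPM and the other 5 libraries 0 to 4.39 CPM. Timp1 passed no filter, with 3.73, 3.59 and 1.93 CPM in libraries labelled Cre-positive and 1.04, 0.707 and 1.59 CPM in those labelled Cre-negative, also without overlap. Timd4, absent by gate from KN-RM, was at 17.4 to 303 CPM in libraries labelled Cre-positive and 3.46 to 16.2 CPM in those labelled Cre-negative. Summed Kupffer cell markers were 1490, 10800 and 5480 CPM in libraries labelled Cre-positive and 3010 to 3880 CPM in those labelled Cre-negative, and their part in these values was not tested.

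**Figure D4:**
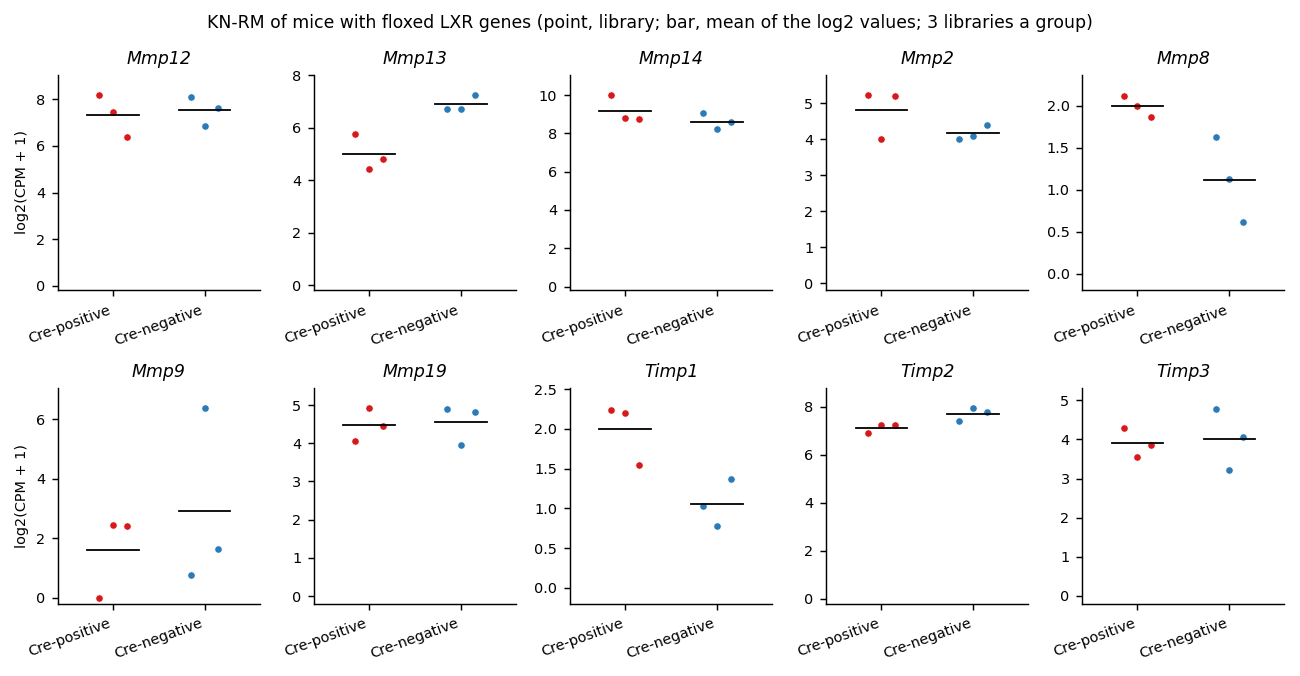
Level of each member, as log2(CPM + 1), in KN-RM of floxed mice labelled Cre-positive (left) and Cre-negative (right), with a point for each of 3 libraries a group and a bar for the mean of the log2 values. Mmp13 is at 20.7 to 52.7 CPM in libraries labelled Cre-positive and 103 to 152 CPM in those labelled Cre-negative, without overlap.

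In whole liver, DTR-positive and DTR-negative mice were compared after 4 weeks of CDAHFD. Of 9 members tested, 0 were called, and neither was any of 12682 genes (0% called, with 477 genes at an unadjusted p under 0.05 in edgeR's test). Timp3 had the lowest p among the members, with means of 49.4 CPM in DTR-positive livers and 40.3 CPM in DTR-negative livers (log2 0.29 ± 0.13, adjusted p = 1). Mmp12 averaged 201 CPM in DTR-positive livers and 204 CPM in DTR-negative livers, Mmp14 averaged 175 CPM in DTR-positive and 163 CPM in DTR-negative livers, and Timp2 64.8 CPM in DTR-positive and 60.3 CPM in DTR-negative livers. Kupffer cell markers summed to 467 to 840 CPM in DTR-positive livers and 513 to 1030 CPM in DTR-negative livers.

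Some livers of both labels stood apart. In Col1a1, 4 livers (DTR-positive replicates 1, 2 and 7 and DTR-negative replicate 2) lay at 45.9 to 64.4 CPM, apart from the other 18 at 153 to 354 CPM. In those 4 livers Mmp12 was at 7.29 to 17.6 CPM, against 110 to 337 CPM in the other 18. Mmp13 was at 0.218 to 1.68 CPM in the 4 and 4.78 to 12.4 CPM in the 18, and Timp1 at 0.417 to 0.936 CPM and 2.93 to 6.33 CPM. Mmp19 lay the other way, at 83.3 to 106 CPM in the 4 and 56.6 to 80.5 CPM in the 18. Hepatocyte markers summed to 208000 to 235000 CPM in the 4 and 86400 to 162000 CPM in the 18, stellate cell and fibroblast markers to 664 to 1010 CPM and 1220 to 2560 CPM, and neutrophil markers to 111 to 179 CPM and 356 to 866 CPM. These livers were singled out by their values, so no test was made of the split.

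**Figure D5:**
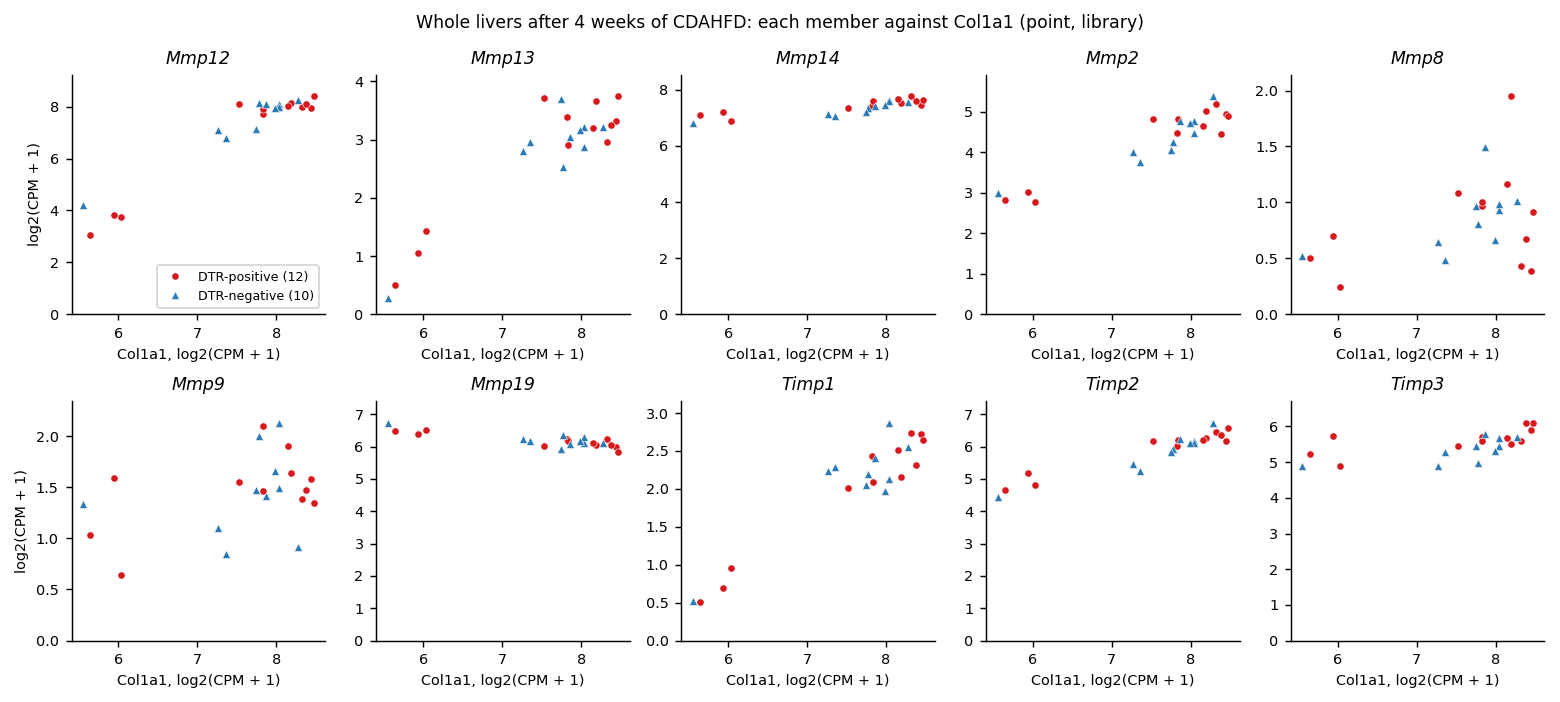
Level of each member, as log2(CPM + 1), against Col1a1 in 22 whole livers, with DTR-positive and DTR-negative livers marked. The 4 livers of low Col1a1 (45.9 to 64.4 CPM) hold 7.29 to 17.6 CPM of Mmp12, against 110 to 337 CPM in the other 18.

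Fitted as a slope on log2 Col1a1 with DTR as a term, 7 of 9 members rose and 1 fell over the 22 livers, with 49.6% of genes called (25.7% higher and 23.9% lower). The slope was 1.72 ± 0.13 for Mmp12, 1.06 ± 0.16 for Mmp13, 1.03 ± 0.11 for Timp1, 0.85 ± 0.08 for Mmp2, 0.65 ± 0.05 for Timp2 and -0.2 ± 0.03 for Mmp19 (log2 per doubling of Col1a1), the last not called by limma on log2(TPM + 1) (adjusted p = 0.166). Without the 4 livers, 5 members were called, with 7.75% of 12701 genes called. They were Mmp12 (slope 0.76 ± 0.22, adjusted p = 0.0359), Mmp14 (0.41 ± 0.09, 0.0138), Mmp2 (0.8 ± 0.22, 0.0331), Timp2 (0.8 ± 0.15, 0.00585) and Timp3 (0.59 ± 0.15, 0.0204). Mmp13 (0.11, adjusted p = 0.84), Mmp19 (-0.11, 0.539) and Timp1 (0.57, 0.144) were not called there.

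Each of the 10 members was correlated with Col1a1 by r and by rho, over the 18 livers and within each label. The p-values were adjusted over 10 relations at a time, separately for r and rho and for each set of livers. Timp2 had r = 0.83 and rho = 0.81 (permutation p adjusted 0.0001 and 0.001), and Mmp14 r = 0.83 and rho = 0.78 (permutation p adjusted 0.0002 and 0.001). Without the 2 livers farthest from the median of Col1a1, r was 0.67 for Timp2 and 0.69 for Mmp14. Timp3 had r = 0.76 and rho = 0.76 (adjusted permutation p 0.000733 and 0.001), and 0.65 without those livers. Mmp12 had r = 0.71 and rho = 0.51 (adjusted permutation p 0.00232 and 0.056), and r = 0.42 without those livers (permutation p = 0.099). Mmp2 had r = 0.7 and rho = 0.65, and r = 0.49 without those livers (permutation p = 0.0537). Leaving out those livers also narrows the range of Col1a1, so a lower r does not show that a relation rested on them. Timp1 had r = 0.54 and rho = 0.58 (adjusted permutation p 0.0353 and 0.0258). Within the 9 DTR-positive livers no adjusted exact permutation p was under 0.163. There r was 0.74 for Timp1, 0.71 for Timp3, 0.65 for Timp2 and 0.64 for Mmp14. Within the 9 DTR-negative livers r was 0.95 for Timp2 and 0.91 for Mmp14 (adjusted exact permutation p 0.00223 each), 0.88 for Mmp2 (0.00358) and 0.84 for Mmp12 (0.0113). For Timp3 and Timp1 r was 0.68 and 0.3 in these DTR-negative livers (adjusted exact permutation p 0.0816 and 0.509). Without the 2 farthest livers of a label, 7 were left, and r was 0.56 for Timp2 and 0.01 for Mmp14 in the DTR-positive livers. The range of Col1a1 is narrower there too, so this does not show that the Mmp14 value rested on those livers. In the DTR-negative livers r was then 0.89 for Timp2, 0.79 for Mmp14, 0.88 for Mmp2 and 0.57 for Mmp12. The difference between the groups was not tested.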

How the data were processed

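The authors deposited raw counts per RefSeq transcript (mm10), made with HOMER's analyzeRepeats.pl over exons, and TPM, per the file headers. STAR, HOMER and DESeq2 are named in the submitters' processing notes, with no version given in the sources used here. The transcript of highest total count stood for each of 24941 genes. Each set was fitted alone in edgeR 4.0.16 (filterByExpr with a minimum count of 10 and a total of 15, TMM, quasi-likelihood test, Benjamini-Hochberg over all genes, threshold 0.05). The code was first run on simulated counts with the same spread for all genes and sets. That run did not match the spread of each set, so it says nothing of error rates in these data. The SE after ± is the absolute log2 change divided by the square root of the F value of edgeR's test, with a spread shared by all groups of a set. Population comparisons share libraries, as all weeks share week 0. DESeq2 1.42.0, limma 3.58.1 on log2(TPM + 1) and log2(TPM + 0.1), RLE scaling and no filter were alternatives. So were a second transcript, only the groups compared, a replicate block and leaving out each library. Only Mmp12, Mmp19 and Timp1 list more than 1 transcript, so the second-transcript fit used the same counts for the other members. Named genes were the 10 members and, in other lists, at most 4 a comparison by largest change among called genes (besides Furin and marker genes), with the 3 most alike genes per member. Members and lists were chosen with earlier results of these data known. The fit without 4 livers was added after seeing the data. Some genes that this rule names are not reported here.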

Additional observations from a re-analysis of the deposited data

Results flagged for a closer look

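Each member was screened in Kupffer cells at week 30 (4 libraries) and in DTR-negative livers (10 libraries), 20 groups in all. DTR-positive livers and the other groups were not screened. Of the 20 groups, 3 held a library far from the others, where chance flags about 1 in 20. Mmp8 in DTR-negative livers was at 1.82 CPM in replicate 8, the next highest being 1.02 CPM and the lowest 0.401 CPM. Mmp19 in DTR-negative livers was at 106 CPM in replicate 2, the next highest being 80.5 CPM and the lowest 59.8 CPM, and this is 1 of the 4 livers of low Col1a1. Timp3 in Kupffer cells at week 30 was at 19.7 CPM in replicate 4, the next highest being 10.3 CPM and the lowest 8.36 CPM. In that library summed stellate cell and fibroblast markers were 412 CPM, the highest of the week 30 libraries, and their part in the value was not tested.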

How the results depend on the processing

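Of 1869 values of 147 member results under the alternatives, 0 reversed, 65 were no longer past the threshold and 43 newly were. Of these values, 147 came from the second-transcript fit, and all of them stayed on the same side of the threshold. That fit changed the members' own counts only for Mmp12, Mmp19 and Timp1. Member calls in KN-RM against KC-N (1) were 0 by limma with either pseudocount, 0 with only those 2 groups, 2 with no filter and 2 with the replicate block (Mmp12 added in both). In Ly6C-low RM against KN-RM (6) they were 3 by limma on log2(TPM + 0.1). At week 1 (2) they were 4 by DESeq2 and 1 by limma with either pseudocount. In the LXR set (0) they were 1 by DESeq2, 2 with no filter and 1 with the replicate block (Mmp13, log2 -1.96, adjusted p = 0.0233). The slope on Col1a1 (8) gave 5 without the 4 livers. Leaving out 1 library at a time gave 3 to 5 calls in KC-N against KC-H, 0 to 1 in KN-RM against KC-N, 4 to 5 in Ly6C-low RM against KN-RM, 4 in Ly6C-low against Ly6C-high RM, 9 in Ly6C-high RM and 9 to 10 in KN-RM against blood monocytes, 1 to 2 at week 1, 0 to 1 at week 4, 2 to 5 at week 10, 5 to 6 at week 20, 6 to 7 at week 30, 4 to 6 for the slope on weeks and 0 to 1 in the LXR set. Over all genes, KN-RM against KC-N gave 77 calls, 36 by limma on log2(TPM + 0.1), 48 with 2 groups, 152 with the block, 257 with no filter and 269 by DESeq2, and the LXR set 24, 2 and 0 by limma on log2(TPM + 1) and log2(TPM + 0.1), 112 with the block, 232 by DESeq2 and 273 with no filter. The deviations of same-numbered libraries correlated weakly (median r 0 to 0.11 across sets, each set with a negative lowest value), which does not exclude pairing. In groups of 2 libraries, as in the population set, the deviations mirror each other and cannot decide it. Of the libraries, 2 of 6 LXR libraries, 2 of 20 livers, 6 of 6 libraries of weeks 10 and 0, 0 of 6 of weeks 20 and 0 and 0 of 6 of weeks 30 and 0 correlated best with their own number, a hint of pairing in weeks 10 and 0 that the labels do not state. The cause of these changes was not tested. Depth limits the low members: Timp1 in the LXR set and Mmp8 in whole liver did not pass the filter.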
